A study of Medicago truncatula with 9 samples.

Results

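The miRNAs described here are those whose levels in all 6 libraries from stressed seedlings, 3 from salt and 3 from alkali, lay on one side of the levels in all 3 libraries from seedlings in distilled water. They were found by pooling both stresses into a single group and comparing it with water, and 83 of the 905 miRNAs in the count table met the rule. Of these one-sided miRNAs, 51 were higher in every stressed library than in every water library and 32 were lower. The samples were entire 3-day-old seedlings of the Medicago truncatula genotype R108, a wild-type model legume, and no transgene or mutant was used. Water seedlings (DW) received distilled water only, salt seedlings (SS) received a mixture of NaCl and Na2SO4 at 20 mM, and alkali seedlings (AS) received a mixture of Na2CO3 and NaHCO3 at 5 mM, each for 72 h, and each condition had 3 small RNA libraries. Sodium was common to both stresses and absent from the water control, whereas the anions, the total concentration and the pH differed between the stresses. The methods describe 1 dish per condition and do not say whether the 3 replicates came from separate dishes, so the p-values measure only the spread between these libraries, which may be partly technical. Every organ of the seedling was pooled, so fewer cells of a type and less miRNA per cell cannot be told apart, and the miRNA table holds no defining marker with which to check the tissue.

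Plant miRNAs are cut from hairpin precursors by a Dicer-like enzyme, most often as molecules of 20 to 22 nt. One arm of the hairpin is loaded into an ARGONAUTE protein and guides the cleavage or repression of mRNAs that pair with it almost completely, while the opposite arm is usually degraded. Many ancient families silence transcription factors of development, such as the SPL, ARF, HD-ZIP III, NF-Y and GRAS proteins, and others adjust the use of copper, sulfate or phosphate. Small RNAs of 24 nt are made by another Dicer-like enzyme and are known mainly for directing DNA methylation, and many annotated 24-nt miRNAs of Medicago have no established target.

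The mature sequences of the one-sided miRNAs on which the results turn are shown first, as listed by the authors, 5′ to 3′, with the seed (bases 2 to 8) in capitals. A listed sequence was found for 42 of the 83, of which 35 were higher in stress and 7 lower, and the authors chose those lists on these libraries. None was found for the miRNAs that the authors predicted, which are named here as in the count table. The first set holds the main miR156 forms, which share a seed on the 5p arm and have other seeds on the 3p arm.
mtr-miR156b-5p: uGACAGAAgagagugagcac
mtr-miR156a: uGACAGAAgagagagagcaca
mtr-miR156b-3p: uGCUCACUcucuaucugucacc
mtr-miR156c-3p: uGCUUACUcucuaucugucacc
mtr-miR156i-3p: uGCUCACUucucuuucugucauc
The second set holds 3 miRNAs of the miR171 family, among which both directions occurred.
mtr-miR171d: uGAUUGAGccgugccaauauc
mtr-miR171f: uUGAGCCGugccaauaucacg
mtr-miR171e-3p: aGAUUGAGccgcgccaauauc
The third set holds the other miRNAs with the clearest separation or from families with an established role.
mtr-miR5211: uCGCAGGAgugaugggaccggc
mtr-miR5232: uACAUGUCgcucucaccugaa
mtr-miR5252: uGAGAGCUcacugaagucugc
mtr-miR160a: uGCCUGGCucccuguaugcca
mtr-miR166a: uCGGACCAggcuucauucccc
mtr-miR169c: cAGCCAAGggugauuugccgg
mtr-miR1510b-3p: aCAUGGUCgguaucccuggaa
mtr-miR398a-3p: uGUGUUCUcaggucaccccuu
mtr-miR398a-5p: gGAGUGACacugagaacacaag
mtr-miR2111l: aUCCUUGGaaugcagauuauc
The sequence of mtr-miR156b-5p was also that of the 5p entries of miR156c, miR156d and miR156i, and that of mtr-miR160a was also that of mtr-miR160b, mtr-miR160d and mtr-miR160e. mtr-miR166a, mtr-miR166e-3p and mtr-miR166g-3p likewise shared 1 sequence. The mean level differed by at most 9.54% between entries of the first sequence, 1% between those of the second and 8.09% between those of the third, and such entries are not independent observations. Of the 42 listed sequences, 28 begin with U.

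Levels are given as counts per 1000000 (CPM) after scaling by TMM, the trimmed mean of M-values, and a fold change is on the log2 scale, stress minus water, with its standard error. Summed miRNA counts ran from 3746957 to 4554748 in water, from 3918174 to 7191272 in salt and from 4135854 to 6503979 in alkali. The TMM factor was highest in DW1, at 1.35, and lowest in AS1, at 0.768, and miRNA counts per 100 clean reads ran from 9.45 in DW1 to 19.9 in AS1. The TMM factor was higher in every water library than in every stressed library, though DW3 at 1.073 and SS1 at 1.072 nearly met. Summed counts and counts per 100 clean reads overlapped between the groups, the latter with 15.5 in DW3 against 12.7 in AS3. Results are also given without DW1 and AS1. The part of those properties in the results was not tested. A miRNA was called when its adjusted p was under 0.05 and its fold change over 1.5 in the quasi-likelihood test of edgeR, adjusted by Benjamini-Hochberg over the 647 miRNAs with enough counts. In that pooled test 51 miRNAs were called higher in stress, or 7.88% of those tested, and 35 were called lower, or 5.41%. Leaving out a library changed the number called higher to 29 (DW1), 30 (DW2), 92 (DW3) or 25 (SS2), and leaving out DW1 and AS1 together changed it to 17. The number called lower became 12 (DW1), 9 (DW2), 60 (DW3) or 60 (AS3), and 16 with DW1 and AS1 both out.

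The 83 one-sided miRNAs were 9.47% of the 876 with any read, with 5.82% higher and 3.65% lower. Enough counts for a test were present for 74 of them, 48 higher (7.42% of the 647 tested) and 26 lower (4.02%). Of the 48 higher, 31 were called in the pooled test, against a background of 7.88%. Of the 26 lower, 11 were called, against a background of 5.41%. The rule used the same libraries and the same contrast, so these shares follow in part from the choice of miRNAs and nothing is read from them. The median log2 fold change was 0.63 over the 48, -0.56 over the 26 and -0.13 over all 647. Another 20 miRNAs called higher and 24 called lower were not one-sided. Among these were 11 entries of miR395, a regulator of sulfate assimilation, though the 12 tested miR395 entries held only 4 distinct count profiles. Of the 11, 10 were called in alkali only, while mtr-miR395a was called higher in alkali and lower in salt. The copper-related mtr-miR398b and mtr-miR408-3p were also called but not one-sided, and their alkali libraries overlapped those of water. Of the 42 one-sided miRNAs that were called, 19 were called whichever library was left out, 15 higher and 4 lower. These calls and their errors are shown in the plot of fold changes.

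**Figure D1:**
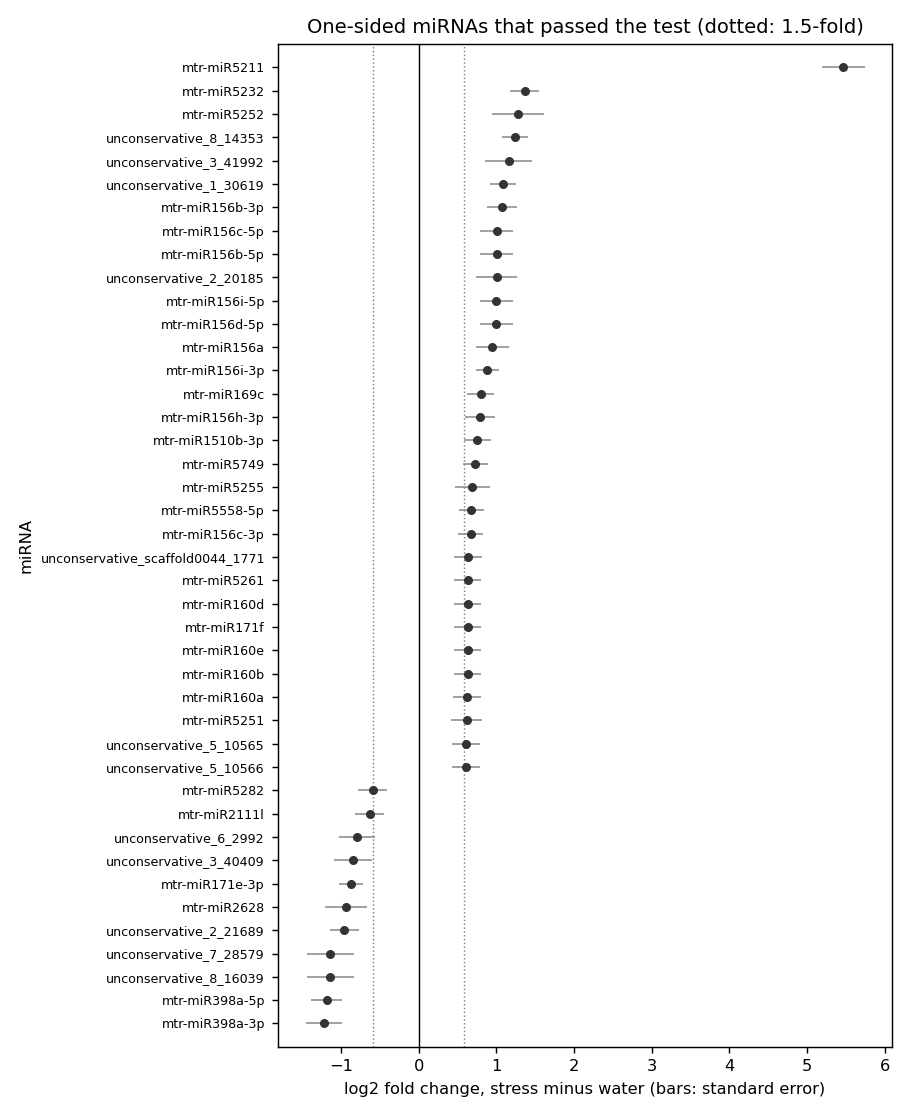
log2 fold change, stress minus water, of the 42 one-sided miRNAs called in the pooled test, with bars for the standard error and dotted lines at 1.5-fold. mtr-miR5211 stands at 5.47, and the other 30 higher miRNAs lie between 0.61 and 1.37, while the 11 lower ones lie between -0.59 and -1.22.

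The separation between the groups was narrow for most one-sided miRNAs. The gap, meaning the ratio of the nearest stressed library to the nearest water library (or its inverse for the lower ones), had a median of 1.1 over the 48 and 1.09 over the 26. It reached at least 1.1 in 26 of the higher and 10 of the lower, a ratio of 5 to 4 in 6 and 6, and at least 1.5 in 3 and 0. For the higher miRNAs DW3 was the nearest water library in 41 of 48, so that library set the boundary for most of them. For the lower ones the nearest water library was DW3 in 13, DW1 in 7 and DW2 in 6 of 26. With a library left out the rule compares fewer libraries, and the number one-sided was 79 higher without DW2 and 123 without DW3, and 58 lower without DW1, 117 without DW3, 51 without SS1 and 49 without SS3. All 48 higher miRNAs stayed one-sided whichever library was left out, while 19 to 26 of the 26 lower did. With fewer libraries compared, a miRNA can leave its side only because the scaling is set anew. Nothing is therefore read from how many stayed. At the edge of the rule, mtr-miR5261 had 120 CPM in DW3 and 121 CPM in AS2 and was counted as higher, with a gap of 1.01. mtr-miR166g-5p, a called miRNA just outside the rule, had its lowest stressed library at 0.951 times its highest water library. On the lower side, unconservative_3_38545 had 145.5 CPM in its lowest water library and 145.2 CPM in its highest stressed library. The called miRNA just outside on that side was mtr-miR5272b, with a ratio of 0.976.

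The scaling decided how many miRNAs lay on each side. With DESeq2's size factors 63 were higher and 27 lower, with clean reads as library sizes 19 were higher and 53 lower, and with total miRNA counts 18 were higher and 133 lower, against 51 and 32 with TMM. The calls of the pooled test were 66 higher and 23 lower with DESeq2's size factors, 35 and 33 with clean reads, and 23 and 227 with total miRNA counts, against 51 and 35 with TMM. The median log2 fold change of all 647 was -0.13 with TMM, -0.04 with DESeq2's size factors, -0.13 with clean reads and -0.46 with total miRNA counts, so a small fold change is best read against that median. Under all 4 scalings, 8 of the 48 higher miRNAs stayed higher and 15 of the 26 lower stayed lower. The 8 were mtr-miR5211, mtr-miR5252, mtr-miR169c, mtr-miR156b-3p, mtr-miR156i-3p and the predicted unconservative_8_14353, unconservative_1_30619 and unconservative_2_20185. Among the 15 were both arms of miR398a, mtr-miR171e-3p, mtr-miR5208a, mtr-miR5208c, mtr-miR5282, mtr-miR5290 and 8 predicted miRNAs.

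**Figure D2:**
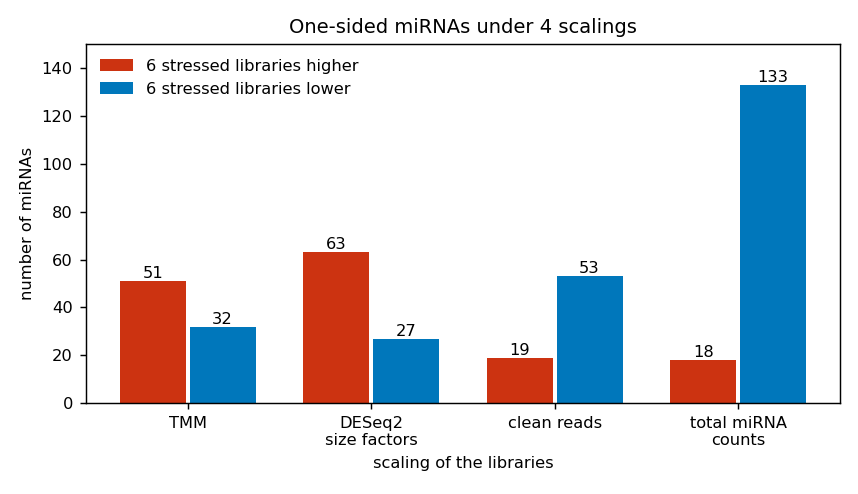
Number of miRNAs (of 876 with any read) for which all 6 stressed libraries were higher (red) or lower (blue) than all 3 water libraries, under 4 scalings of the libraries. TMM gave 51 higher and 32 lower, while total miRNA counts gave 18 and 133.

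The clearest one-sided miRNA was mtr-miR5211, a 22-nt Medicago miRNA whose targets were not examined here. It had 1.19, 1.61 and 2.05 CPM in the 3 water libraries, from 6, 7 and 10 counts. The salt libraries had 75.5, 95.5 and 70.4 CPM and the alkali libraries had 76.5, 52.5 and 67.0 CPM. The lowest stressed library, AS2, was thus 25.7 times the highest water library, the widest gap of any of the 48 higher miRNAs. The log2 fold change was 5.47 ± 0.271 (44.3-fold, adjusted p = 4.5e-13, edgeR). It was called in each stress, with log2 fold changes of 5.62 in salt and 5.32 in alkali, and the pooled call was kept under every alternative run.

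mtr-miR5232, a 21-nt Medicago miRNA, was both one-sided and graded between the stresses. Water libraries had 451, 581 and 705 CPM, salt libraries had 971, 1238 and 778 CPM, and alkali libraries had 2594, 2185 and 1929 CPM. The 3 alkali libraries all lay above the 3 salt libraries, which all lay above water. The pooled log2 fold change was 1.37 ± 0.188 (adjusted p = 5.54e-05, edgeR), made up of 0.78 in salt and 1.95 in alkali. The call was lost when the 6 stressed libraries were fitted as a single group, with a log2 fold change of 1.48, since the difference between the stresses then counted as spread. mtr-miR5252, a 21-nt miRNA of low abundance, had 1.38, 2.07 and 3.07 CPM in water, 5.99, 5.27 and 5.67 CPM in salt, and 5.16, 4.26 and 5.58 CPM in alkali. These levels came from 7, 9 and 15 counts in water and 18 to 43 counts under stress. Its log2 fold change was 1.28 ± 0.338 (adjusted p = 0.0167, edgeR), and the call was lost without DW1 and with DW1 and AS1 both left out.

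The largest family among the one-sided miRNAs was miR156, which silences the SPL transcription factors that drive the change from juvenile to adult growth. Of 10 tested entries of the 5p arm, which is the guide arm, 9 were called higher, against 7.88% of all 647. Of the 10, 0 were called lower and 5 were one-sided, with a median log2 fold change of 0.87. The number called was 5 with total miRNA counts, with clean reads, without DW2, and with DW1 and AS1 both left out. The 10 entries held only 8 distinct count profiles, and 4 of the 5 one-sided ones share 1 sequence, so they are not independent observations. mtr-miR156b-5p had 3159, 4093 and 5764 CPM in water, 7730, 10252 and 6353 CPM in salt, and 11810, 8805 and 7509 CPM in alkali. Its log2 fold change was 1.01 ± 0.215 (adjusted p = 0.00372, edgeR). DW3 was the highest water library and lay just below SS3. mtr-miR156a, whose sequence differs from that of mtr-miR156b-5p by U14A (position from the 5′ end, with the base of mtr-miR156b-5p first) and a further base at its 3′ end, had 320, 359 and 608 CPM in water and 616 to 1172 CPM in the 6 stressed libraries. The calls of mtr-miR156a and of the 4 entries with the sequence of mtr-miR156b-5p were kept under every alternative.

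The opposite, 3p arms of the miR156 hairpins were less abundant. Of 6 tested entries, 4 were called higher, against 7.88% of all 647, 0 were called lower and 4 were one-sided. Their median log2 fold change was 0.73. The number called was 1 with total miRNA counts and 2 with DW1 and AS1 both left out. mtr-miR156b-3p had 116, 174 and 238 CPM in water, 338, 374 and 274 CPM in salt, and 447, 447 and 370 CPM in alkali (log2 fold change 1.08 ± 0.191, adjusted p = 0.000759, edgeR). mtr-miR156i-3p had 48.2, 53.5 and 56.5 CPM in water, 96.1, 93.8 and 87.1 CPM in salt, and 96.3, 97.6 and 114 CPM in alkali. Its gap was 1.54, among the 3 widest of the higher miRNAs. mtr-miR156c-3p, which differs from mtr-miR156b-3p by C5U within the seed, had a log2 fold change of 0.67 ± 0.164, and its call was lost without DW2, with DW1 and AS1 both left out, with total miRNA counts and with clean reads. mtr-miR156h-3p, with another seed, had 210, 396.6 and 449 CPM in water and 549 to 700 CPM under stress (0.79 ± 0.189). The calls of mtr-miR156h-3p and mtr-miR156i-3p were lost with total miRNA counts, and that of mtr-miR156h-3p also with DW1 and AS1 both left out. Both arms of miR156b, miR156c and miR156i were one-sided. mtr-miR156d-3p was not, with 34.0, 24.3 and 20.9 CPM in water and 13.6 to 29.7 CPM under stress (log2 fold change -0.17), although its partner mtr-miR156d-5p was. In the list of miR172, a family that acts opposite to miR156 in phase change by silencing AP2-like factors, 0 of 2 tested entries were called in either direction by edgeR, DESeq2 or limma-voom, with a median of -0.77 and unadjusted edgeR p under 0.05 for both. These 2 entries had identical counts in every library, so they make 1 observation. Both were called lower with total miRNA counts. The unadjusted p was under 0.05 for 0 of them without DW3, SS3 or AS3, with DESeq2's size factors, and by DESeq2 or limma-voom. This also held with blocking on replicate and when the stressed libraries were fitted as a single group.

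Auxin-related miRNAs came next. miR160 silences the ARF10, ARF16 and ARF17 class of auxin response factors, and its 4 one-sided entries have a single mature sequence. mtr-miR160a had 39.5, 35.3 and 44.4 CPM in water, 46.6, 70.6 and 54.1 CPM in salt, and 74.1, 69.0 and 54.3 CPM in alkali. The groups were separated only between DW3 and SS1. Its log2 fold change was 0.62 ± 0.175 (adjusted p = 0.022, edgeR), and the calls of all 4 entries were lost without DW2, without SS2 or without AS1, with DW1 and AS1 both left out, with the filter set to 100 counts in 3 libraries, and with total miRNA counts, where the value of mtr-miR160a was 0.27. Over the whole auxin list (miR160, miR164, miR167, miR390 and miR393), 4 of 14 tested entries were called higher, against 7.88% of all 647, and 0 lower. Those 4 were the miR160 entries with a single sequence. The number called higher in the list was 9 without DW3.

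miR166 silences the HD-ZIP III factors of leaf polarity, vascular tissue and meristems, and its 3p arm included the most abundant of the one-sided miRNAs. mtr-miR166a had 17482, 20844 and 28553 CPM in water, 31523, 34462 and 29485 CPM in salt, and 35442, 32786 and 30819 CPM in alkali. SS3 lay 1.03 times above DW3, and the log2 fold change of 0.54 ± 0.189 was not called (adjusted p = 0.0516, edgeR). It was called without DW3, without AS3 and by DESeq2. mtr-miR166e-3p was also not called, with a log2 fold change of 0.50 ± 0.182. In the miR166 list, 1 of 8 tested entries was called higher, against 7.88% of all 647, and 0 were called lower. That entry, mtr-miR166g-5p, was not one-sided. The number called higher was 7 without DW3, 3 without AS3 or by DESeq2, and 0 without DW1, DW2, SS2 or AS1.

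mtr-miR169c belongs to the family that silences NF-YA subunits, and it was one-sided under all 4 scalings. It had 70.2, 106 and 105 CPM in water, 131, 198 and 164.3 CPM in salt, and 154, 174 and 157 CPM in alkali. The log2 fold changes were 0.81 in salt and 0.79 in alkali. The pooled value was 0.80 ± 0.17 (adjusted p = 0.00372, edgeR), and the call was lost with total miRNA counts. It was the only one of the 6 tested miR169 entries that was called in either direction, against 13.3% of all 647. However, 2 of the 6 entries were called higher without DW2, DW3 or AS3 and 2 lower with total miRNA counts.

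The miR171 family, which silences GRAS transcription factors that maintain meristems, held calls in both directions with TMM, while with total miRNA counts 0 were called higher and 2 lower. mtr-miR171f had 42.7, 36.5 and 58.3 CPM in water, 66.8, 78.0 and 68.1 CPM in salt, and 77.6, 69.5 and 66.5 CPM in alkali. It was called higher, with a log2 fold change of 0.63 ± 0.168, and the call was lost without DW2, with DW1 and AS1 both left out, with total miRNA counts, with clean reads and with the filter of 100 counts. mtr-miR171d had 37.8, 33.5 and 48.9 CPM in water and 56.8 to 65.4 CPM under stress, and its fold change of 1.48 was under the threshold of 1.5. Without DW3 or AS3 it was called. mtr-miR171e-3p has the same seed as mtr-miR171d and differs from it by U1A and U12C (positions from the 5′ end, with the base of mtr-miR171d first). It had 74.5, 76.4 and 81.0 CPM in water, 44.0, 58.3 and 43.0 CPM in salt, and 39.8, 34.8 and 36.5 CPM in alkali. The water libraries lay close together and the highest stressed library, SS2, was well below them. Its log2 fold change was -0.87 ± 0.153 (adjusted p = 0.000715, edgeR), and the call was kept under every alternative. The other arm of that hairpin, mtr-miR171e-5p, was not one-sided and had a log2 fold change of -0.32 ± 0.167. mtr-miR171c was one-sided with a gap of 1.03, at 36.4 to 41.3 CPM in water and 42.4 to 51.8 CPM under stress, and its log2 fold change of 0.25 turned to -0.09 with total miRNA counts. In the whole list, 1 of 6 tested entries was called higher and 1 lower, against 7.88% and 5.41% of all 647. The number called higher was 0 without DW2, 2 without SS1 or AS2, and 3 without DW3 or AS3 and by DESeq2.

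**Figure D3:**
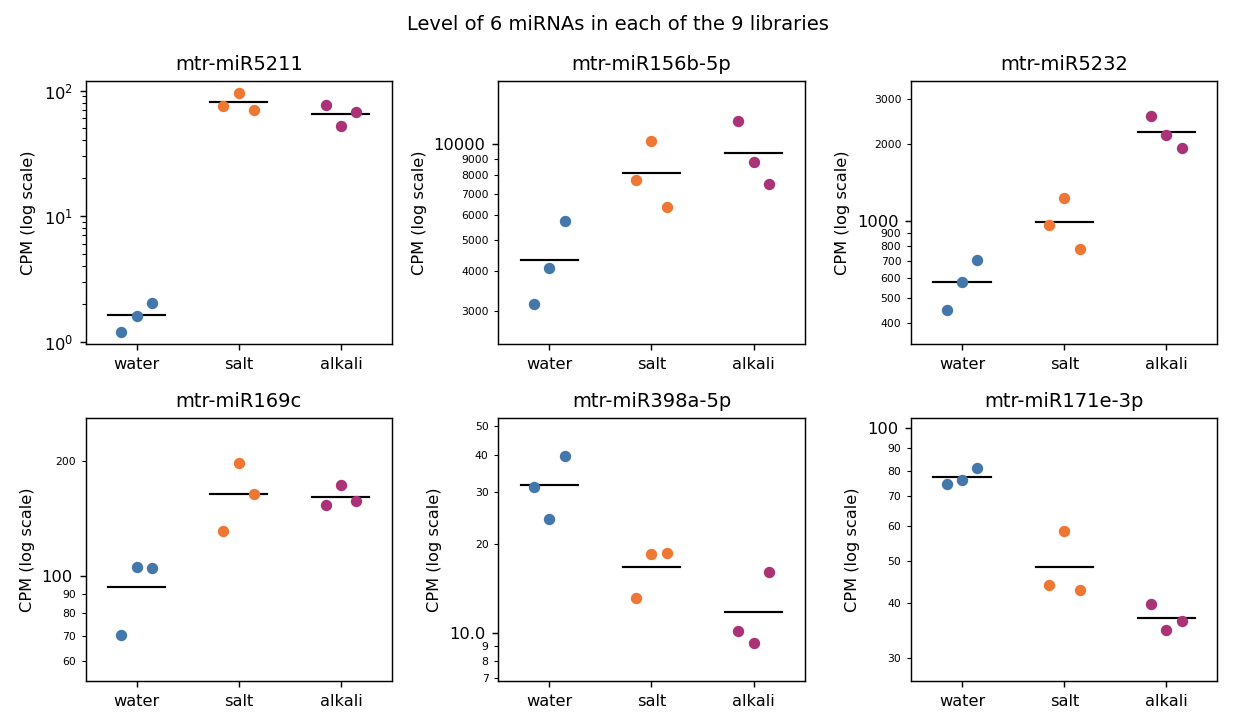
CPM on a log axis in each library for 6 one-sided miRNAs, with points for the libraries in replicate order and a line at the mean of each condition (n = 3). mtr-miR5211 stands at 1.19 to 2.05 CPM in water and at 52.5 to 95.5 CPM under stress, mtr-miR5232 is higher in alkali than in salt, and mtr-miR398a-5p and mtr-miR171e-3p are lower in both stresses than in water.

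The 2 arms of miR398a were the largest of the lower one-sided changes. miR398 silences Cu/Zn superoxide dismutases and other copper proteins and is known to accumulate when copper is scarce. mtr-miR398a-3p, the guide arm, had 11.5, 9.41 and 13.3 CPM in water, 5.55, 7.62 and 5.93 CPM in salt, and 4.33, 3.90 and 3.05 CPM in alkali, from 12 to 65 counts per library. Its log2 fold change was -1.22 ± 0.233 (adjusted p = 0.00148, edgeR). mtr-miR398a-5p had 31.0, 24.3 and 39.7 CPM in water, 13.1, 18.5 and 18.6 CPM in salt, and 10.1, 9.23 and 16.0 CPM in alkali (-1.18 ± 0.2, adjusted p = 0.000572, edgeR). Both arms fell under every alternative run. All 6 tested entries of the copper list (miR397, miR398 and miR408) were called lower in the pooled test, against 5.41% of all 647, and 0 higher. Only the miR398a arms were one-sided, and 3 of the 6 were called when the stressed libraries were fitted as a single group. mtr-miR398b had 33.4, 48.0 and 45.0 CPM in water, 7.33, 12.02 and 9.88 CPM in salt, and 51.2, 35.3 and 43.4 CPM in alkali. Its alkali libraries thus overlapped those of water, and it was called lower in salt and not in alkali.

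One-sided miRNAs of the list tied to immunity were all higher in stress. The list tied to symbiosis held 1, which was lower. mtr-miR1510b-3p, of a legume family that silences NBS-LRR immune receptors, had 1331, 1716 and 2091 CPM in water, 2988, 3104 and 2482 CPM in salt, and 3374, 2592 and 2823 CPM in alkali. It was called higher, at 0.76 ± 0.175 (adjusted p = 0.00707, edgeR), though not with total miRNA counts, with clean reads, or with DW1 and AS1 both left out. mtr-miR482-5p was one-sided but not called, at 114, 122 and 144 CPM in water and 149 to 184 CPM under stress. Its more abundant partner arm, mtr-miR482-3p, at a mean of 2612 CPM, was neither one-sided nor called, with a log2 fold change of 0.12 ± 0.155. In the NBS-LRR list, 2 of 9 tested entries were called higher (against 7.88% of all 647), 0 lower, and 2 were one-sided (against 7.42% higher). The number called was 1 without DW1, DW2 or SS2, and 0 with total miRNA counts, with clean reads, or with DW1 and AS1 both left out. mtr-miR2111l, of a family known in Lotus japonicus for silencing the root regulator TOO MUCH LOVE, had 34.0, 32.8 and 42.8 CPM in water, 26.4, 19.05 and 16.1 CPM in salt, and 29.1, 28.4 and 24.4 CPM in alkali. Its name gives no arm, and whether it is the arm that silences that regulator was not examined here. mtr-miR2111l was called lower, at -0.63 ± 0.184 (adjusted p = 0.023, edgeR). The call was lost without each of DW1, DW2, DW3, SS2, SS3 and AS3, by DESeq2 and in the fit of the stressed libraries as a single group. It was the only one of 15 tested miR2111 entries that was called or one-sided, against 5.41% of all 647 called lower. In the family, 9 entries were called lower without AS3 and 15 with total miRNA counts. The fold changes of all 15 were below 0 with unadjusted edgeR p under 0.05. This held for 1 without DW1 or DW3, 10 by DESeq2 and 8 with DW1 and AS1 both left out. The 15 entries held only 8 distinct count profiles, so they are not independent observations.

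Other lists held few or no one-sided miRNAs. Over all 647, 7.88% were called higher and 5.41% lower. In the list of miRNA machinery (miR162 and miR168, which silence DCL1 and ARGONAUTE1), mtr-miR168c-3p was one-sided, at 876, 1252 and 1256 CPM in water and 1344 to 1682 CPM under stress, and 0 of 4 tested entries were called by edgeR, DESeq2 or limma-voom, with 3 at an unadjusted edgeR p under 0.05. Without DW3, 2 were called higher. The opposite arm of the one-sided entry, mtr-miR168c-5p, was not one-sided and not called, with a log2 fold change of 0.38 ± 0.163. For miR159 and miR319, which silence MYB and TCP factors, 0 of 9 tested entries were called by edgeR and 0 were one-sided. Their median was 0.50, and 5 had an unadjusted edgeR p under 0.05. DESeq2 called 5 higher and limma-voom 2, and leaving out DW3 gave 5, AS3 2, and SS3 or AS2 1. For miR396, which silences growth-regulating factors, 0 of 4 were called by edgeR, DESeq2 or limma-voom, and 0 had an unadjusted edgeR p under 0.05. In the sulfate list, 11 of 12 tested miR395 entries were called higher, 0 lower, and 0 were one-sided. The 12 entries held only 4 distinct count profiles, so they are not independent observations. The number called was 0 without DW1, SS2 or SS3, with DW1 and AS1 both left out, and in the fit of 2 groups. No entry of the phosphate list (miR399 and miR827) had enough counts for a test.

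Several called one-sided miRNAs belong to families outside these lists, and their targets were not examined here. mtr-miR5749 had 67.2, 77.8 and 93.7 CPM in water and 111 to 168.9 CPM under stress (log2 fold change 0.73 ± 0.163), and its call was lost with total miRNA counts and with DW1 and AS1 both left out. mtr-miR5558-5p had 72.5, 53.5 and 81.9 CPM in water and 95.9 to 122 CPM under stress (0.68 ± 0.16), and its call was lost without DW2 and with total miRNA counts. The other arm, mtr-miR5558-3p, was one-sided too, at 113 to 157 CPM in water and 186 to 209 CPM under stress, and its fold change was below the threshold. Both arms of miR2086 were one-sided and neither was called. Of the lower ones, mtr-miR2628 had 8.50, 8.95 and 10.0 CPM in water and 2.64 to 7.55 CPM under stress, and its call was lost without each of DW1, DW2, DW3 and SS2. mtr-miR5282, a 24-nt entry, had 38.1, 30.8 and 27.6 CPM in water and 13.2 to 26.9 CPM under stress, and its call at -0.59 ± 0.186 was lost under 11 of the alternatives.

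Of the 74 tested one-sided miRNAs, 24 were predicted by the authors from these libraries, 11 of the 48 higher and 13 of the 26 lower, against 196 of all 647, or 30.3%. unconservative_8_14353 had 28.7, 32.1 and 38.9 CPM in water, 72.4, 73.0 and 68.1 CPM in salt, and 104, 72.0 and 84.0 CPM in alkali. Its gap of 1.75 was the second widest of the higher miRNAs, and its log2 fold change was 1.24 ± 0.171 (adjusted p = 5.54e-05, edgeR). unconservative_1_30619 had 629, 682 and 893 CPM in water, 1116, 1350 and 1075 CPM in salt, and 2442, 1811 and 1952 CPM in alkali (1.09 ± 0.171). Both of these calls were kept under every alternative. unconservative_3_41992 had 10.7, 12.4 and 18.01 CPM in water and 18.3 to 52.6 CPM under stress (1.16 ± 0.303), and its call was lost without DW2 or SS2. unconservative_2_20185, at 3.56 to 5.53 CPM in water and 6.92 to 11.3 CPM under stress, lost its call without DW1 or DW2, with DW1 and AS1 both left out and with total miRNA counts.

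Of the 13 predicted miRNAs that were lower, 9 had a mean level under 100 CPM. unconservative_2_21689 was more abundant, with 586, 421 and 335 CPM in water, 327, 202 and 299 CPM in salt, and 143, 201 and 232 CPM in alkali (-0.96 ± 0.187, adjusted p = 0.00179, edgeR). Its call was kept under every alternative, although DW3 and SS1 nearly touched. unconservative_7_28579 and unconservative_8_16039 had identical counts in every library, at 4.55, 5.97 and 6.75 CPM in water and 2.03 to 3.22 CPM under stress (-1.14 ± 0.3), and the call was lost without DW2. unconservative_3_40409 had 8.70, 10.3 and 8.39 CPM in water and 3.51 to 5.68 CPM under stress, a gap of 1.48 that was the widest of the lower miRNAs. Its call was lost without DW1, DW2 or AS1, with DW1 and AS1 both left out and by DESeq2. unconservative_6_2992 had 9.69, 11.2 and 8.80 CPM in water and 3.92 to 6.22 CPM under stress, and its call was lost without DW1, DW2, SS3 or AS1, with DW1 and AS1 both left out and by DESeq2. The most abundant of the 13, unconservative_4_42676, had 3072 to 3497 CPM in water and 2166 to 2817 CPM under stress and was not called (-0.34 ± 0.15).

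Mature length, which the rule did not use, differed between the directions. None of the 48 higher miRNAs was 24 nt long, whereas 13 of the 26 lower ones were, or 50.0%, against 34.8% of all 647. Lengths of 20 to 22 nt made up 89.6% of the higher, 42.3% of the lower and 61.7% of all. The length classes also differed over all tested miRNAs, with a median log2 fold change of -0.39 for 24 nt and 0.12 for known miRNAs of 20 to 22 nt. With total miRNA counts these were -0.73 and -0.22. Of all 225 tested 24-nt miRNAs, 1 was called higher, or 0.444%, against 7.88% of all 647. Those called lower were 20, or 8.89%, against 5.41% of all 647. The higher miRNAs were also more abundant, with a median mean level of 129 CPM against 22.6 CPM for the lower and 24.5 CPM for all tested.

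**Figure D4:**
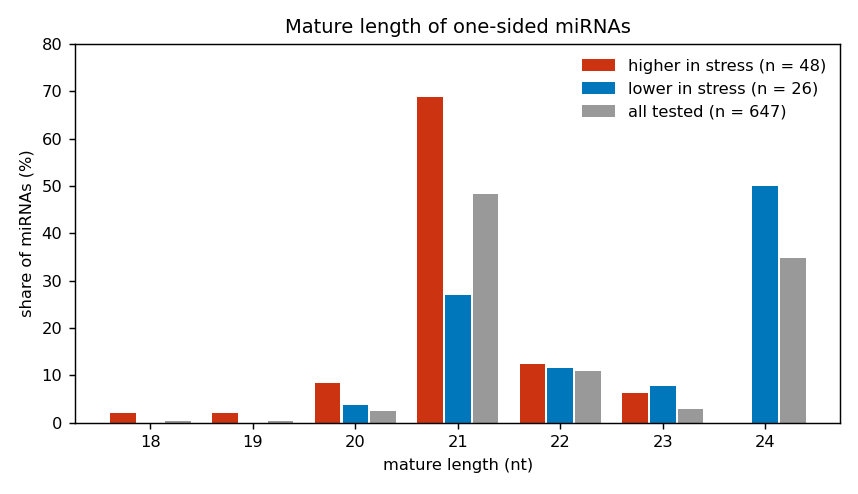
Share (%) of miRNAs at each mature length (nt) among the 48 higher (red) and 26 lower (blue) one-sided miRNAs and all 647 tested (grey). The 24-nt class holds none of the higher, 50.0% of the lower and 34.8% of all.

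Each stress was also compared with water on its own in the same fit. Both comparisons share the 3 water libraries, so their values are only set side by side. In salt 26 miRNAs of the 647 were called higher, or 4.02%, and 27 lower, or 4.17%, which together made 8.19%. In alkali 56 were called higher, or 8.66%, and 55 lower, or 8.5%, which together made 17.2%. Of the 48 higher one-sided miRNAs, 21 were called in salt, 30 in alkali, 19 in both and 16 in neither. Of the 26 lower, 3 were called in salt, 12 in alkali, 2 in both and 13 in neither. With total miRNA counts 9 of the higher and 10 of the lower were called in salt, and 10 and 26 in alkali. With clean reads salt had 3 and 0 of them, whereas alkali had 21 and 12. The 21 became 9, 6 or 39 when DW1, DW2 or DW3 was left out, and 6 or 3 when SS1 or SS2 was. The 30 became 17 when AS1 was left out and 14 with DW1 out as well. The 12 became 5 and 7 when DW2 and AS1 were left out, while the 3 were 0 to 5 over the libraries left out, with 0 for DW1, 1 for DW2, SS1, SS2 or SS3 and 5 for AS1. The 2 called lower in both were mtr-miR398a-5p, whose call in salt was gone when DW1, SS1 or SS2 was left out, and mtr-miR171e-3p, whose call there was gone when any water library, SS1 or SS3 was. Both calls in salt were also gone with clean reads. The 3 one-sided miRNAs called in salt but not in alkali were mtr-miR2111l and the identical pair unconservative_5_10565 and unconservative_5_10566. The call of mtr-miR2111l in salt was lost without DW1, DW2, DW3, SS2 or SS3 and with clean reads, and with total miRNA counts it was called lower in alkali too. These counts place a miRNA on either side of a threshold, and a difference between the stresses needs the direct test.

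The direct test of alkali against salt did not use the rule. In it 22 miRNAs of the 647 were called higher in alkali, or 3.4%, and 4 lower, or 0.618%. The 4 became 36 without AS3, 2 without SS1 or SS2 and 0 without SS3, AS1 or AS2. Of the 74 tested one-sided miRNAs 2 were called, both higher in alkali, against 4.02% called in either direction over all 647. Without AS3 mtr-miR398a-5p and unconservative_2_21689 were called as well. mtr-miR5232 was higher in alkali than in salt by 1.17 ± 0.206 (adjusted p = 0.000402, edgeR), with all 3 alkali libraries above all 3 salt libraries. unconservative_1_30619 was higher by 0.81 ± 0.189 (adjusted p = 0.0099, edgeR), again without overlap, and its call was lost without SS1, SS3 or AS1 and with clean reads. Both arms of miR398a were lower in alkali by 0.72 (3p) and 0.53 (5p) on the log2 scale, with unadjusted p under 0.05 only. Over the others no difference between the stresses passed the test, which does not show that they acted alike. The median of alkali minus salt was 0.14 over the 48 higher and -0.19 over the 26 lower, against -0.06 over all 647. All 3 alkali libraries lay further from water than all 3 salt libraries for 6 of the 48 higher, or 12.5%, and 6 of the 26 lower, or 23.1%, and the reverse held for 0. Over all 647, all alkali libraries were above all salt libraries in 14.8% and below them in 10.2%.

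**Figure D5:**
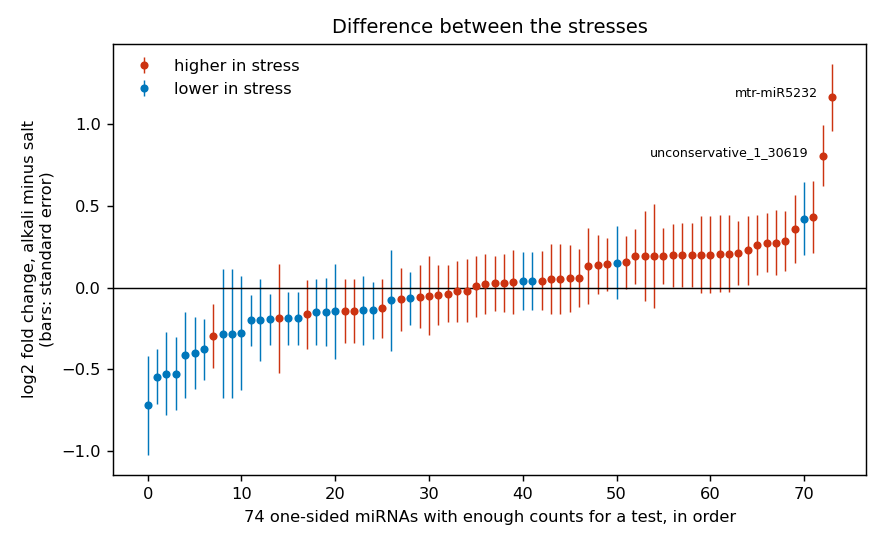
log2 fold change, alkali minus salt, of the 74 tested one-sided miRNAs in order of that value, with bars for the standard error, coloured by whether they were higher (red) or lower (blue) in stress than in water. Only mtr-miR5232 at 1.17 and unconservative_1_30619 at 0.81 passed the test.

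Too few counts for a test were present for 9 one-sided miRNAs, 3 higher and 6 lower. mtr-miR5204 had 0 counts in all 3 water libraries, 2 counts in each salt library, and 3, 6 and 10 counts in the alkali libraries. mtr-miR2610a and mtr-miR2610b had 0 counts in water and 1 to 3 in each stressed library. A count of 0 in a library allows up to 3 counts, so these differences were hardly detectable at this depth and no fold is given. The 6 lower ones were mtr-miR2606b, mtr-miR2606c, mtr-miR2667a, mtr-miR2667b, mtr-miR5254 and mtr-miR5288, which had at most 11 counts in any library.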

How the data were processed

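Small RNA of 9 libraries was sequenced by the authors, who trimmed the reads, kept those of 18 to 30 nt, filtered out rRNA and similar RNA with Bowtie, mapped what remained to the genome and assigned reads to 684 known and 221 predicted miRNAs. The deposited counts are whole numbers, not normalized. The deposited TPM values are the counts divided by the library's miRNA total and were not used further, and the deposited lengths (nt) are of the mature miRNA. How reads of shared sequences were assigned is not given in the sources used here. The authors tested with DESeq 1.10.1, which was not used here.

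The analysis used edgeR 4.0.16 in R 4.3.3 (filterByExpr, minimum count 10, TMM, robust quasi-likelihood fit of the 3 conditions, all 9 libraries). The pooled contrast was the mean of salt and alkali minus water. CPM are per 1000000 of the TMM-scaled library. The 647 tested miRNAs held 490 distinct count profiles. The one-sided rule was applied to CPM. Named miRNAs were the 10 largest called changes in each direction, every one-sided miRNA of a family list, the 5 most abundant in each direction, those at the edge of the rule, those called in alkali against salt and up to 5 predicted ones in each direction. mtr-miR5749, mtr-miR5558, mtr-miR2086, mtr-miR171e-5p, mtr-miR156d-3p, mtr-miR398b, mtr-miR408-3p, mtr-miR395a, unconservative_5_10565, its identical pair and the miRNAs with few counts were named after their values were seen. The same holds for mtr-miR482-3p and mtr-miR168c-5p. The miRNAs and the family lists were chosen with earlier results of these data known.

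Alternatives were DESeq2 1.42.0, limma-voom (limma 3.58.1), other scalings, the filter removed or set to 100 counts in 3 libraries, a 2-group fit, larger gaps, identical count profiles once (the table holds no sequences), blocking on replicate, and each library left out. After the data were examined, leaving out DW1 with AS1 and requiring one side under all 4 scalings were added. The procedure was tested on simulated data. Standard errors cover the spread between libraries of a condition, which includes counting error.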

Additional observations from a re-analysis of the deposited data

Results flagged for a closer look

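Of the one-sided miRNAs, 3 carried a value that calls for another look. mtr-miR5232 differed between the stresses, with alkali above salt by 1.17 on the log2 scale in the direct test. unconservative_1_30619 differed in the same way, by 0.81. For unconservative_6_2992, AS1 stood apart from the other stressed libraries, at 3.92 CPM against 5.67 to 6.22 CPM in the other 5, 1 such case among 50 miRNAs checked, where chance sets about 1 in 20 apart.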

How the results depend on the processing

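Under the alternatives to the main analysis, with 51 called higher, 35 called lower, 51 one-sided higher and 32 one-sided lower, the counts moved by more than 1.5 times as follows. With total miRNA counts, 23 were called higher and 227 lower, and 18 and 133 were one-sided. With clean reads, 19 and 53 were one-sided and 1 of the one-sided miRNAs was called in alkali against salt. With DESeq2's size factors 23, and by DESeq2's own test 21, were called lower. With at least 100 counts in 3 libraries, 26 were called higher, 14 were one-sided lower, and alkali against salt gave 8 higher and 2 lower. In the 2-group fit 20 were called lower. A gap of at least 1.1 left 29 and 15 one-sided, a gap of at least 5 to 4 left 9 and 7, and all 4 scalings together left 11 and 20. Leaving out DW1 and AS1 gave 17 called higher, 16 called lower and 72 one-sided lower. Leaving out each library in turn gave 25 to 92 called higher, 9 to 60 called lower, 52 to 123 one-sided higher and 32 to 117 one-sided lower. In alkali against salt it gave 18 to 27 higher, 0 to 36 lower and 1 to 4 of the one-sided miRNAs. The log2 fold change of mtr-miR171c turned to -0.0854 with total miRNA counts. The cause was not tested.

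Whether replicate numbers pair the libraries could not be settled. The 9 correlations of same-numbered deviations ran from -0.599 to 0.383, with 4 of 9 over 0.1, and libraries of different numbers were not compared. With a replicate block 26 were called higher and 20 lower, and 1 was lower in alkali against salt. Among the calls gone with the block were those of the 4 miR160 entries, mtr-miR2111l and the 11 miR395 entries.

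Of the 42 called one-sided miRNAs, 13 were called under every alternative run, among them the block. Depth limits the miRNAs under about 10 counts per library, and separate dishes, tissues and miRNA targets were not analysed here.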
